A study of Mus musculus with 7 samples.

Results

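The cytokine group studied here signals through gp130, the shared receptor chain encoded by Il6st. Of its 10 genes, 9 were measured, among 18193 genes on the array, by 23 of the 45101 probe sets in the table. Each probe set was taken because its only platform gene symbol was a member. These members are the receptor genes Lifr, Osmr, Il6st and Il6ra, the ligand genes Lif, Osm and Il6, the transcription factor gene Stat3 and the feedback inhibitor gene Socs3. Il11ra1, the IL-11 binding receptor, had no probe set matched by that rule and is not analysed here. The members were chosen by function and with the stromal minus endothelial differences of these same arrays in view, so their levels and differences are given as a description, without p-values.

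RNA came from wild-type C57Bl/6J mice of 6 to 12 weeks, from marrow cells that lacked CD45 and lineage markers on sorting. Cells positive for CD54 and BP1 and negative for CD31, labelled stromal, gave 4 arrays (stromal 1 to 4), and CD54-negative, CD31-positive cells, labelled endothelial, gave 3 arrays (CD31+ 1 to 3). Amplified RNA from 1800 to 10000 cells was hybridised to each Affymetrix mouse expression array. The labels do not say whether replicates came from separate mice or sorts, so every error below measures the spread between these samples, which may be technical.

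Cytokines of this family bind a receptor chain of their own and then bring it together with gp130, or with gp130 and a further signalling chain. The JAK kinases carried by these chains phosphorylate STAT3, which enters the nucleus and switches on target genes. Among the targets is Socs3, whose product binds gp130 and JAK kinases and shuts the signal off. In bone marrow the family is known for acting on osteoblasts, osteoclasts, stromal cells, blood progenitors and megakaryocytes.

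Values are the authors' log2 expression values, and differences are stromal minus CD31+ on that scale. A probe set entered the test when its value exceeded the array's own 40th percentile, the floor used here (5.48 to 5.79), on 3 arrays or more. It was called if limma's adjusted p was under 0.05 and the difference at least 1. Where a group averaged less than that floor no fold is given, since the floor then limits the difference.

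All 6 reticular stroma markers were higher on the stromal arrays, where their mean lay at 13.09 to 13.28, against 5.26 to 6.64 on the CD31+ arrays. The label endothelial was less well borne out, with a mean of 6 endothelial markers of 5.03 to 5.27 on the stromal and 6.15 to 6.58 on the CD31+ arrays. Cdh5 lay at 5.19 to 5.67, Emcn at 4.11 to 4.19 and Tek at 4.50 to 4.98 on the CD31+ arrays, all with group means below the 40th percentile, and of these markers only Pecam1 and Kdr were called higher there. Pecam1 encodes CD31, on which the cells were sorted, and passed the filter through the CD31+ arrays alone, so it had to differ. All 7 megakaryocyte and platelet markers were called higher on the CD31+ arrays, with means of 14.06 to 14.22 there and 5.67 to 8.89 on the stromal arrays, the highest of these on stromal 4. In such bulk samples fewer cells of a type and less RNA per cell cannot be told apart. CD31+ 2 and 3 also stood apart in 18 spiked hybridisation control probe sets, with means of 11.33 and 11.37 against 9.51 to 9.75 on the other 5 arrays.

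Of the 23 member probe sets, 18 passed the filter, 11 were called toward the stromal side, 2 toward the CD31+ side and 5 neither way. Among all 29439 probe sets tested the background was 40.6% called, 26.0% toward the stromal and 14.6% toward the CD31+ arrays. Nothing is read from the members' share, because the same contrast was in view when they were chosen. The median difference over all 23 was 0.91, and that over all 45037 probe sets without controls was -0.31. In 16 of the 23 the groups did not overlap, against 60.7% of all probe sets. Of all probe sets called, 64.1% were higher on the stromal arrays, or 51.9% after a second quantile normalization, which moved the median difference of all probe sets tested to -0.13, against 0.07 as deposited.

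**Figure D1:**
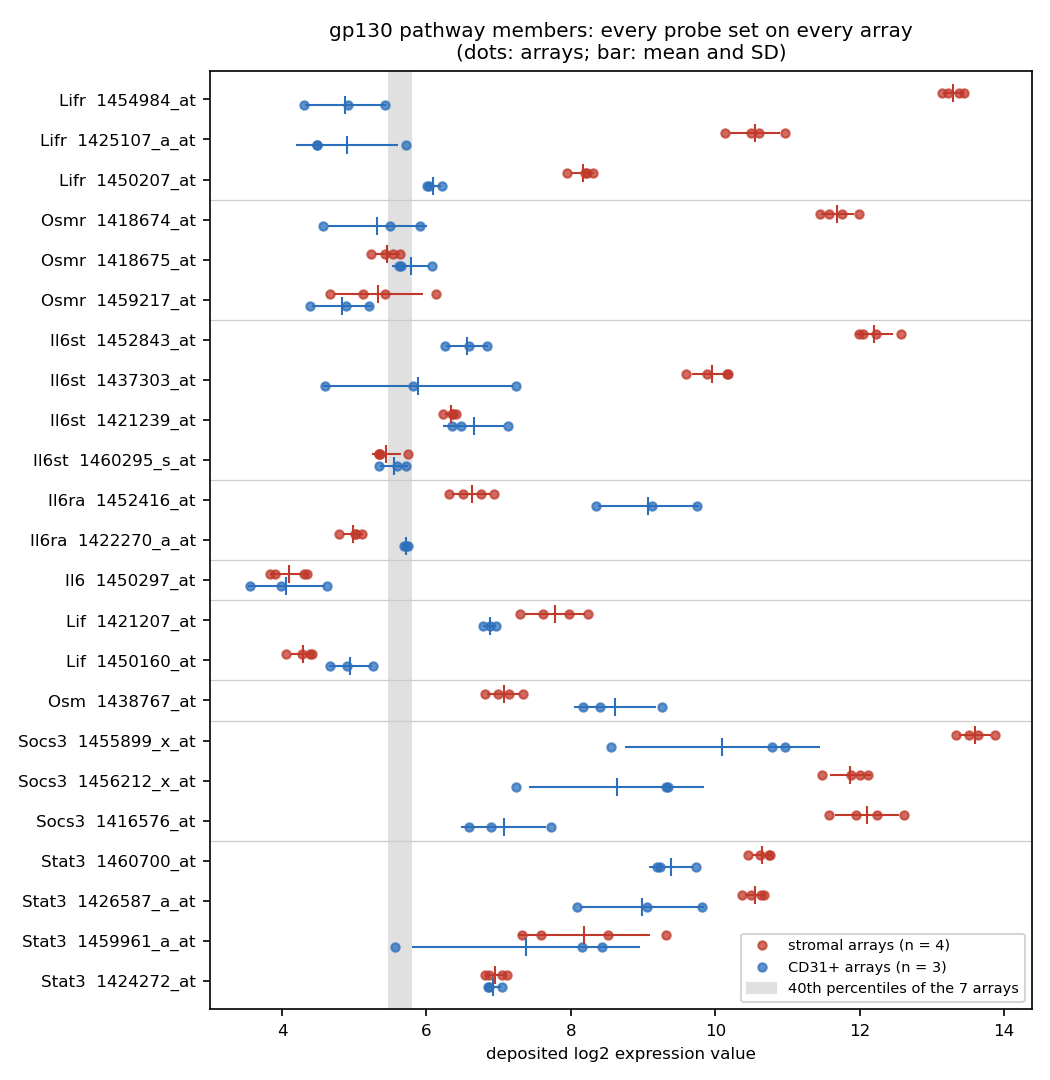
Deposited log2 value (horizontal axis) of every probe set of the 9 measured members on 4 stromal arrays (red) and 3 CD31+ arrays (blue); dots are arrays, bars the mean and SD, and the grey band spans the arrays' 40th percentiles. The stromal dots of Lifr 1454984_at lie between 13.14 and 13.45, while its CD31+ dots lie at 5.42 or below. Il6ra 1452416_at and Osm show the opposite order.

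Among the members, the largest differences toward the stromal arrays belonged to 3 receptor genes and to the feedback gene Socs3. The promoter windows of these 4 genes are shown because they stood high on the same arrays, and because Socs3 is a textbook target of STAT3. Each runs from 250 bases before to 50 bases after an annotated start in RefSeq (build GRCm38.p6), 5′ to 3′ on the gene's strand. Capitals mark a match to TTCNNNGAA, a palindrome bound by STAT dimers that reads alike on both strands.
Socs3 (chr11:117969317-117969616, minus strand): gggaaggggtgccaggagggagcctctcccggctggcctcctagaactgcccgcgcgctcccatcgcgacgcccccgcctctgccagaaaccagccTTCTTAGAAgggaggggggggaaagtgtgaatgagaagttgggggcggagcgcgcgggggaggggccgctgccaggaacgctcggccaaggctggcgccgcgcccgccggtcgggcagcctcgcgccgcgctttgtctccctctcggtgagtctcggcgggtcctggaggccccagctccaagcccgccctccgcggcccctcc
Lifr (chr15:7129322-7129621, plus strand): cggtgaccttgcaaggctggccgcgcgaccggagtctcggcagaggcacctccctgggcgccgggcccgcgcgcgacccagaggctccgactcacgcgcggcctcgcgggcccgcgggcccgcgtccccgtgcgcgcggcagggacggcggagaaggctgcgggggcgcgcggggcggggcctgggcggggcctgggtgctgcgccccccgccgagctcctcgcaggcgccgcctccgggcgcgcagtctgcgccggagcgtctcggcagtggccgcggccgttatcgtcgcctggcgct
Osmr (chr15:6874264-6874563, minus strand): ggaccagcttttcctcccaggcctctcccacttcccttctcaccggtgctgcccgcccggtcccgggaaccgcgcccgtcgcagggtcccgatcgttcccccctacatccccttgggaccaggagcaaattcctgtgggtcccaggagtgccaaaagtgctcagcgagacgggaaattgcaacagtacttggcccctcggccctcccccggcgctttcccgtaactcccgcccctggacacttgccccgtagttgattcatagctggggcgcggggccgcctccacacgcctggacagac
Il6st (chr13:112463820-112464119, plus strand): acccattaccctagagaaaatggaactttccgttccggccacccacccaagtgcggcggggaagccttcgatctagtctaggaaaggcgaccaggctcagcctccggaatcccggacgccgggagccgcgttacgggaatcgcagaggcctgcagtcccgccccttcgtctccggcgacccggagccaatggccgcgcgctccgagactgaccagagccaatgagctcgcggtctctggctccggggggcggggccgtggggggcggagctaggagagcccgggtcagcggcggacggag
The Socs3 window held 1 match, TTCTTAGAA, whose first base lies 154 bases before the start. No match was found in the other 10 windows, which belong to 8 further members (Lifr and Il11ra1 have 2 each). Of all 32851 windows of this length 8.30% held the motif. A match is a description of the letters and not a binding site.

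Lifr encodes the LIF receptor, which pairs with gp130 to receive LIF and cardiotrophin-1. Its probe set 1454984_at lay at 13.14, 13.23, 13.37 and 13.45 on stromal 1 to 4, against 4.91, 5.42 and 4.30 on CD31+ 1 to 3. The groups were far apart, and no CD31+ array reached its own 40th percentile. The difference of 8.42 ± 0.27 (SE) is therefore limited by the floor on the CD31+ side. This probe set passed the filter through the stromal arrays alone, so it had to differ.

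The other Lifr probe sets had the same order with smaller differences. Probe set 1425107_a_at lay at 10.13, 10.97, 10.50 and 10.61 on the stromal arrays, against 4.49, 5.71 and 4.49 on the CD31+ arrays, a difference of 5.65 ± 0.35 (SE). Probe set 1450207_at lay at 8.22, 8.19, 7.94 and 8.30 on the stromal arrays and at 6.04, 6.01 and 6.22 on the CD31+ arrays. For this last probe set both groups lay above the floor, the SDs were 0.16 on the stromal and 0.11 on the CD31+ arrays, and the stromal arrays were 4.20-fold higher. In all 3 the groups did not overlap, but the size of the Lifr difference ranged from 2.07 to 8.42 with the probe set.

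Osmr encodes the oncostatin M receptor, which in mice joins gp130 to receive oncostatin M. Probe set 1418674_at lay at 11.75, 11.58, 11.99 and 11.45 on the stromal arrays, against 4.56, 5.91 and 5.49 on the CD31+ arrays. Every stromal array exceeded every CD31+ array by at least 5.54, and the difference was 6.38 ± 0.32 (SE). The other 2 probe sets of Osmr did not show it. Probe set 1418675_at lay at 5.54, 5.42, 5.23 and 5.64 on the stromal and 5.62, 5.65 and 6.08 on the CD31+ arrays, close to the floor in both groups. Its difference was -0.33 and turned to 0.16 after cyclic loess. Probe set 1459217_at ranged from 4.66 to 6.13 on the stromal and from 4.39 to 5.21 on the CD31+ arrays and was too dim to test.

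Il6st encodes gp130 itself, and its 4 probe sets also parted ways. Probe set 1452843_at lay at 12.22, 12.04, 11.99 and 12.57 on the stromal arrays, against 6.59, 6.84 and 6.26 on the CD31+ arrays. Both groups lay above the floor, and the stromal arrays were 49.9-fold higher, a difference of 5.64 ± 0.22 (SE). Probe set 1437303_at lay at 10.16, 9.88, 10.17 and 9.59 on the stromal arrays and at 5.81, 7.24 and 4.60 on the CD31+ arrays. The groups did not overlap here either, and the difference was 4.07 ± 0.54 (SE), with SDs of 0.27 on the stromal and 1.32 on the CD31+ arrays.

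In the remaining 2 probe sets of Il6st the groups overlapped. Probe set 1421239_at ranged from 6.23 to 6.41 on the stromal and from 6.35 to 7.13 on the CD31+ arrays, a difference of -0.31 ± 0.22 (SE) that was not called. Probe set 1460295_s_at ranged from 5.34 to 5.74 on the stromal and from 5.34 to 5.72 on the CD31+ arrays, and did not pass the filter. Which transcripts of Osmr and Il6st each probe set reports was not analysed here.

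Il6ra, whose product binds IL-6 before gp130 joins, ran the other way. Probe set 1452416_at lay at 6.76, 6.93, 6.31 and 6.50 on the stromal arrays, against 8.35, 9.75 and 9.12 on the CD31+ arrays. The groups did not overlap, and the value was 5.46-fold higher on the CD31+ arrays (difference -2.45 ± 0.33, SE). It was -1.73 ± 0.35 (SE) with a block for the hybridisation-control split, where CD31+ 1 alone stands for its group. Probe set 1422270_a_at lay at 4.79 to 5.11 on the stromal and at 5.69 to 5.74 on the CD31+ arrays and did not pass the filter. Both probe sets of Il6ra therefore had the lower values on the stromal arrays, the second of them near the floor.

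Among the ligand genes only Osm was called. Osm encodes oncostatin M, a cytokine made mainly by blood cells. Its probe set 1438767_at lay at 7.14, 7.34, 6.99 and 6.81 on the stromal arrays, against 8.17, 8.41 and 9.26 on the CD31+ arrays. The groups were separated by 0.83, and the value was 2.92-fold higher on the CD31+ arrays (difference -1.54 ± 0.29, SE). With that block the difference was -1.10 ± 0.37 (SE) and the call was lost. Probe set 1418674_at of the receptor gene Osmr and the probe set of its ligand gene Osm thus stood highest on arrays of opposite groups. The other Osmr probe sets lay near or below the floor and were not called.

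Called markers of blood cells mostly shared the direction of Il6ra and Osm between the groups. The mean of 9 neutrophil markers was 7.84 to 10.09 on the stromal and 9.54 to 12.55 on the CD31+ arrays, with 6 of the 9 called toward the CD31+ side. That of 6 monocyte and macrophage markers was 6.31 to 7.32 on the stromal and 7.80 to 8.74 on the CD31+ arrays, with 4 called higher on the CD31+ and 1, Cd14, on the stromal arrays. Of 5 B-lineage markers 2 were called higher on the CD31+ arrays and 1, Ebf1, on the stromal arrays, with means of 7.23 to 8.17 on the stromal and 7.35 to 9.85 on the CD31+ arrays. These means include Ebf1, which averaged 11.37 on the stromal and 7.64 on the CD31+ arrays and so raises the stromal level. Among the CD31+ arrays the third had the highest Osm value and the lowest means of all 3 lists. The second had the highest Il6ra value and the highest means of all 3 lists. The part of these cells, or of the megakaryocyte transcripts above, in the Il6ra and Osm values was not tested.

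Lif, the ligand of the LIF receptor, was not called. Probe set 1421207_at lay at 7.61, 7.97, 7.30 and 8.24 on the stromal arrays, against 6.78, 6.88 and 6.96 on the CD31+ arrays. The groups did not overlap, yet the difference of 0.91 ± 0.25 (SE) stayed just short of the required 1, and at 1.07 it passed without stromal 3. After a second quantile normalization or cyclic loess it was 0.52. Probe set 1450160_at had the opposite order at the floor, with 4.06 to 4.41 on the stromal and 4.67 to 5.26 on the CD31+ arrays.

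Il6, the ligand of the IL-6 receptor, was not detectable above the floor of these arrays. Its only probe set, 1450297_at, lay at 3.83, 4.31, 4.35 and 3.90 on the stromal arrays and at 3.56, 4.62 and 3.99 on the CD31+ arrays. No array reached its own 40th percentile, and the group means were 4.10 on the stromal and 4.06 on the CD31+ arrays. A transcript below the sensitivity of this probe set would give the same values.

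Socs3, the feedback inhibitor, was higher on the stromal arrays in all 3 of its probe sets. Probe set 1416576_at lay at 11.95, 12.62, 12.24 and 11.58 on the stromal arrays, against 6.59, 6.89 and 7.73 on the CD31+ arrays. The stromal arrays were 32.5-fold higher, a difference of 5.02 ± 0.34 (SE), and the groups lay 3.84 apart at their nearest. All of these levels were above the floor.

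The other 2 Socs3 probe sets carry the suffix that marks possible cross-hybridisation. Probe set 1455899_x_at lay at 13.34, 13.87, 13.64 and 13.52 on the stromal arrays, against 8.55, 10.79 and 10.96 on the CD31+ arrays, a difference of 3.49 ± 0.55 (SE). Probe set 1456212_x_at lay at 11.48, 12.12, 12.01 and 11.88 on the stromal arrays, against 7.24, 9.32 and 9.34 on the CD31+ arrays, a difference of 3.24 ± 0.50 (SE). In both, CD31+ 1 was lower than CD31+ 2 and 3 by over 2. In 1416576_at CD31+ 1 was also the lowest, but close to CD31+ 2. The mean of the reticular stroma markers was likewise lower on CD31+ 1, at 5.26, than on CD31+ 2 and 3, at 6.64 and 6.38, as was the hybridisation control level. Among these markers Pdgfrb had by far the widest gap, at 2.93 on CD31+ 1 against 8.94 and 8.72. Lepr, Foxc1 and Kitl were also lowest on CD31+ 1, at 3.96, 5.02 and 7.13. Cxcl12 was lowest on CD31+ 3 (6.05, against 6.46 on CD31+ 1) and Ebf3 on CD31+ 2 (5.39, against 6.08). The part of the stromal markers or hybridisation controls in the Socs3 values was not tested. The differences were 2.72 and 2.54 without CD31+ 1, and 5.05 and 4.64 with the hybridisation-control block, where CD31+ 1 stands alone.

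Stat3, the main STAT downstream of gp130, had the smallest differences of the called members on the stromal side. Probe set 1460700_at lay at 10.75, 10.62, 10.46 and 10.76 on the stromal arrays, against 9.19, 9.24 and 9.73 on the CD31+ arrays. The groups did not overlap, and the difference was 1.26 ± 0.20 (SE). The difference was under 1 after a second quantile normalization (0.87) and cyclic loess (0.82). Probe set 1426587_a_at lay at 10.37 to 10.68 on the stromal and 8.09 to 9.81 on the CD31+ arrays, a difference of 1.56 ± 0.37 (SE). Its call was lost after cyclic loess, at 1.08, and with the hybridisation-control block, at 1.49.

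The remaining 2 Stat3 probe sets were not called. Probe set 1424272_at ranged from 6.81 to 7.11 on the stromal and from 6.85 to 7.05 on the CD31+ arrays, a difference of 0.03 ± 0.17 (SE). Probe set 1459961_a_at varied widely in both groups, with 9.32, 7.32, 8.52 and 7.58 on the stromal and 5.56, 8.15 and 8.43 on the CD31+ arrays. Its difference of 0.80 ± 0.76 (SE) became 2.62 and was called with the hybridisation-control block, where CD31+ 1, its lowest array, stands alone. Without CD31+ 1 it was -0.11.

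**Figure D2:**
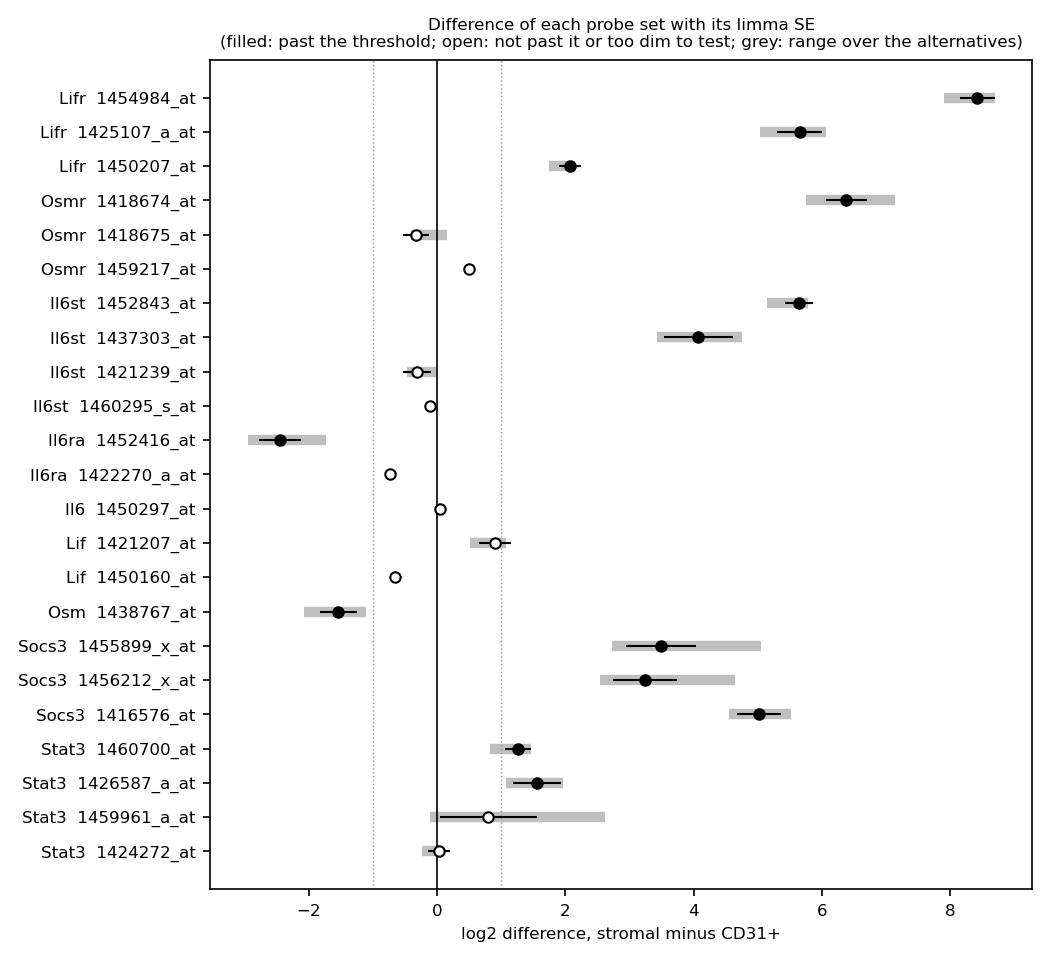
Log2 difference, stromal minus CD31+ (horizontal axis), of each member probe set with its limma SE; filled points passed the threshold, open points did not or were too dim to test, and grey bars span the deposited values and the alternatives. Probe sets of Osmr, Il6st and Stat3 lie both near 0 and well above it, and those of Il6ra and Osm lie below 0.

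Genes whose values ran closest to the members were found by the root mean square distance between profiles over the 7 arrays, each profile less its own mean. Nearest to Lifr 1454984_at were Ogn, Antxr1, Steap4, Plagl1 and Igfbp5, at distances of 0.22 to 0.28, with differences from 8.08 to 8.79. Nearest to Osmr 1418674_at were Tmem176a, Col1a2, Tmem176b, Nfib and Naalad2, at 0.20 to 0.29. Nearest to Socs3 1455899_x_at were Sh3bp5, Ehd2, Kbtbd11, Acvr2a and Ccdc122, at 0.29 to 0.35. All of them were lower on CD31+ 1 than on CD31+ 2 and 3, which follows from their choice by that profile. Nearest to Il6 were Osbpl8, Chchd5, Pecr, Smarcc1 and Rps18, at 0.11 to 0.13, and the small distances there go with differences of -0.04 to -0.12. Il6 itself lay below the floor on every array, so its profile need not reflect its transcript. These distances are descriptions over arrays that form 2 groups.

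**Figure D3:**
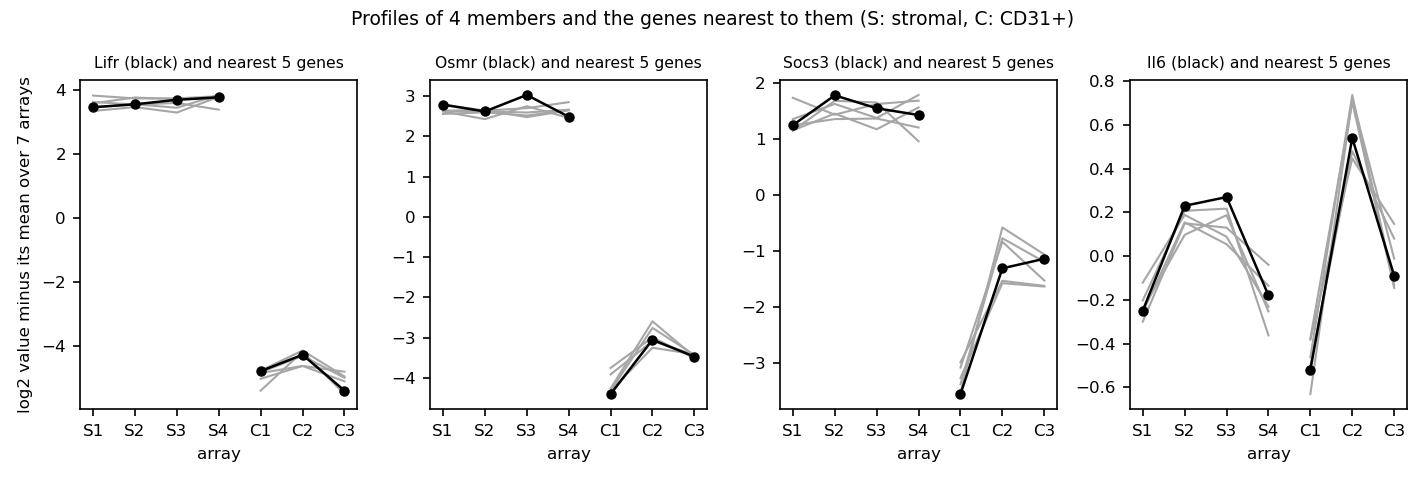
Log2 value less its mean over the 7 arrays (vertical axis) for 4 member probe sets (black) and the 5 genes nearest to each (grey), by array, S for stromal and C for CD31+; the vertical scales differ between panels. The Lifr and Osmr profiles lie 8.42 and 6.38 higher on the stromal arrays, while the Il6 profile stays within a narrow range.

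Other genes of the pathway were read from lists written with earlier results of these data known, using the brightest probe set of each gene. Of the 69 listed, 63 had a probe set, 61 were tested, 26 were called toward the stromal side and 12 toward the CD31+ side. Among all 13995 genes tested the background was 47.0% called, 30.9% toward the stromal and 16.1% toward the CD31+ arrays. The median difference was 0.83 over the 61 and 0.19 over all genes tested.

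Further ligands and receptor chains were called in both directions. Of 4 ligand genes tested, Ctf1, which encodes cardiotrophin-1, was called toward the stromal side (stromal 8.19 ± 0.26, SD, n = 4, CD31+ 6.75 ± 0.30, n = 3, limma adjusted p = 8.44e-04), with a difference of 1.45 that was 0.98 after cyclic loess. Ebi3, a subunit of IL-27, was higher on the CD31+ arrays (stromal 5.52 ± 0.18, n = 4, CD31+ 6.71 ± 0.58, n = 3, limma adjusted p = 0.00616), with a difference of -1.19, or -0.85 without CD31+ 2. Its stromal mean lay just above the mean stromal floor of 5.5, and only 2 of the 4 stromal arrays exceeded their own 40th percentile. Il11 and Clcf1 were not called, at -0.28 and -0.72. Il11 turned to 0.11 after cyclic loess. Clcf1 lay at 7.24, 6.00 and 9.41 on the 3 CD31+ arrays. Its difference was -1.50 and called without CD31+ 2, and 0.21 without CD31+ 3. The call of Ebi3 was also lost after cyclic loess, at -0.83, and with the hybridisation-control block, at -0.87.

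Among 6 related receptor chains tested, Lepr and Csf3r were called. Lepr, the leptin receptor gene, whose product resembles gp130, lay at 13.11, 13.19, 13.23 and 12.98 on the stromal arrays and at 3.96, 5.09 and 4.30 on the CD31+ arrays, a difference of 8.67 that was 4.88 with the mean of its probe sets. Lepr passed the filter through the stromal arrays alone, so its difference is limited by the floor and no p-value is given. Csf3r, the G-CSF receptor gene, was higher on the CD31+ arrays by little (stromal 5.87 ± 0.48, n = 4, CD31+ 6.92 ± 0.11, n = 3, difference -1.05, limma adjusted p = 0.00946). Its call was lost without stromal 2 (-0.91), stromal 4 (-0.94) or CD31+ 2 (-1.0), with the replicate number as a block (-0.94), after cyclic loess (-0.82) and with the hybridisation-control block (-1.05, adjusted p = 0.0701). The replicate block repeats the difference without stromal 4, which has no CD31+ array of its number. Il12rb1, Il31ra, Cntfr and Il27ra were not called, at 0.81, 0.46, -0.46 and -0.51. Il12rb1 passed without CD31+ 1, at 1.01. Il12rb2 was too dim to test.

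Kinases and other STATs were called in both directions. Of 8 tested, 3 STAT genes (Stat5a, Stat6 and Stat2) were called toward the stromal side. The Stat2 mean on the CD31+ arrays, 5.24, lay below the floor, which limits its difference. Jak2 and Jak1, which are among the kinases that phosphorylate STATs at these receptors, were called toward the CD31+ side. The kinase genes Jak3 and Tyk2 and the STAT gene Stat5b, named here after their values were seen, differed by 0.54, 0.12 and 0.52 and were called neither way. Stat5a lay at 10.75, 11.21, 10.70 and 11.63 on the stromal arrays, against 7.33, 7.72 and 7.51 on the CD31+ arrays, 11.7-fold higher (limma adjusted p = 1.21e-05). Jak2 lay at 9.70, 10.01, 9.75 and 9.89 on the stromal arrays, against 12.04, 12.02 and 11.87 on the CD31+ arrays, 4.41-fold higher there (limma adjusted p = 1.68e-05). Jak1 differed by -1.21 (limma adjusted p = 0.00305), or by -0.97 without CD31+ 1, which ended its call. Averaged over their probe sets, Stat2 and Stat6 differed by 0.93 and 0.83, against 2.02 and 1.62, and were not called, and Stat5a differed by 2.58, against 3.55.

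Inhibitors and adaptors were called in both directions as well. Of 20 tested, 7 went to the stromal side and 5 to the CD31+ side. On the stromal side stood some other members of the SOCS family, with Socs7 at 4.16, Socs2 at 3.93 and Socs5 at 2.78 (limma adjusted p = 3.18e-04, 2.82e-05 and 6.44e-05), and Pias1 at 2.39 (limma adjusted p = 0.00120). Of the rest of these families, named after their values were seen, Cish and Socs6 were also called toward the stromal side, at 2.01 and 1.32. The Socs6 mean on the CD31+ arrays, 5.38, lay below the floor. Socs1, Socs4, Pias2, Pias4 and Pias3 were not called, at 0.33, 0.83, 0.83, 0.80 and -0.59. Averaged over their probe sets Socs7 and Socs2 differed by 1.34 and 2.38. The 4 largest differences toward the CD31+ side belonged to 3 phosphatase genes and an adaptor gene. Ptpn11, which encodes SHP2, lay at 9.87, 9.72, 9.40 and 10.47 on the stromal arrays, against 13.03, 12.70 and 12.94 on the CD31+ arrays, 8.14-fold higher there (limma adjusted p = 3.13e-05). Ptpn6, which encodes the blood cell phosphatase SHP-1, differed by -2.39, Gab2, an adaptor bound by SHP2, by -2.28, and Ptpn1 by -1.46 (limma adjusted p = 3.49e-04, 3.34e-05 and 2.75e-04). Other phosphatase and adaptor genes, named after their values were seen, did not all share that direction. The adaptor gene Grb2 was also called toward the CD31+ side, at -1.46 (limma adjusted p = 0.00225). Sos1 was called toward the stromal side, at 1.83, and Shc1, Ptpn2 and Gab1 were not called, at 0.97, 0.83 and 0.18. Without probe sets ending in _x_at, _s_at or _a_at Gab2 differed by -0.90 and was not called, and the CD31+ count of this list was 3, against 5. Without CD31+ 2 the stromal count of this list was 12, against 7.

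Of 23 genes that STAT3 is known to induce in various cells, 14 were called toward the stromal side and 3 toward the CD31+ side, with a list median of 1.26. The stromal count was 10 to 15 over the alternatives, lowest after cyclic loess. Among them were the acute-phase genes Lbp and Hp, with Lbp at 12.74 ± 0.17 (SD, n = 4) on the stromal and 7.94 ± 1.17 (n = 3) on the CD31+ arrays (limma adjusted p = 6.62e-05). Hp lay at 14.71 ± 0.06 (n = 4) on the stromal and 10.54 ± 0.90 (n = 3) on the CD31+ arrays (limma adjusted p = 3.53e-05), the array maxima being 14.68 to 14.82. The protease inhibitor gene Timp1 differed by 4.16 and the angiogenic factor gene Vegfa by 4.11 (limma adjusted p = 2.06e-05 and 1.80e-06). The Vegfa mean on the CD31+ arrays, 5.71, lay just below their mean floor of 5.72. Higher on the CD31+ arrays were Ccnd1, which encodes cyclin D1, Bcl2l1, which encodes the survival protein Bcl-xL, and Klf4, a transcription factor gene, with differences of -3.72, -3.20 and -1.92 (limma adjusted p = 2.93e-04, 6.51e-06 and 0.00981). The Klf4 call was lost with the hybridisation-control block, at -1.19. Averaged over their probe sets, Vegfa, Bcl2l1 and Ccnd1 differed by 2.37, -1.71 and -2.35. The count of these genes says nothing of STAT3 activity, which was not measured.

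**Figure D4:**
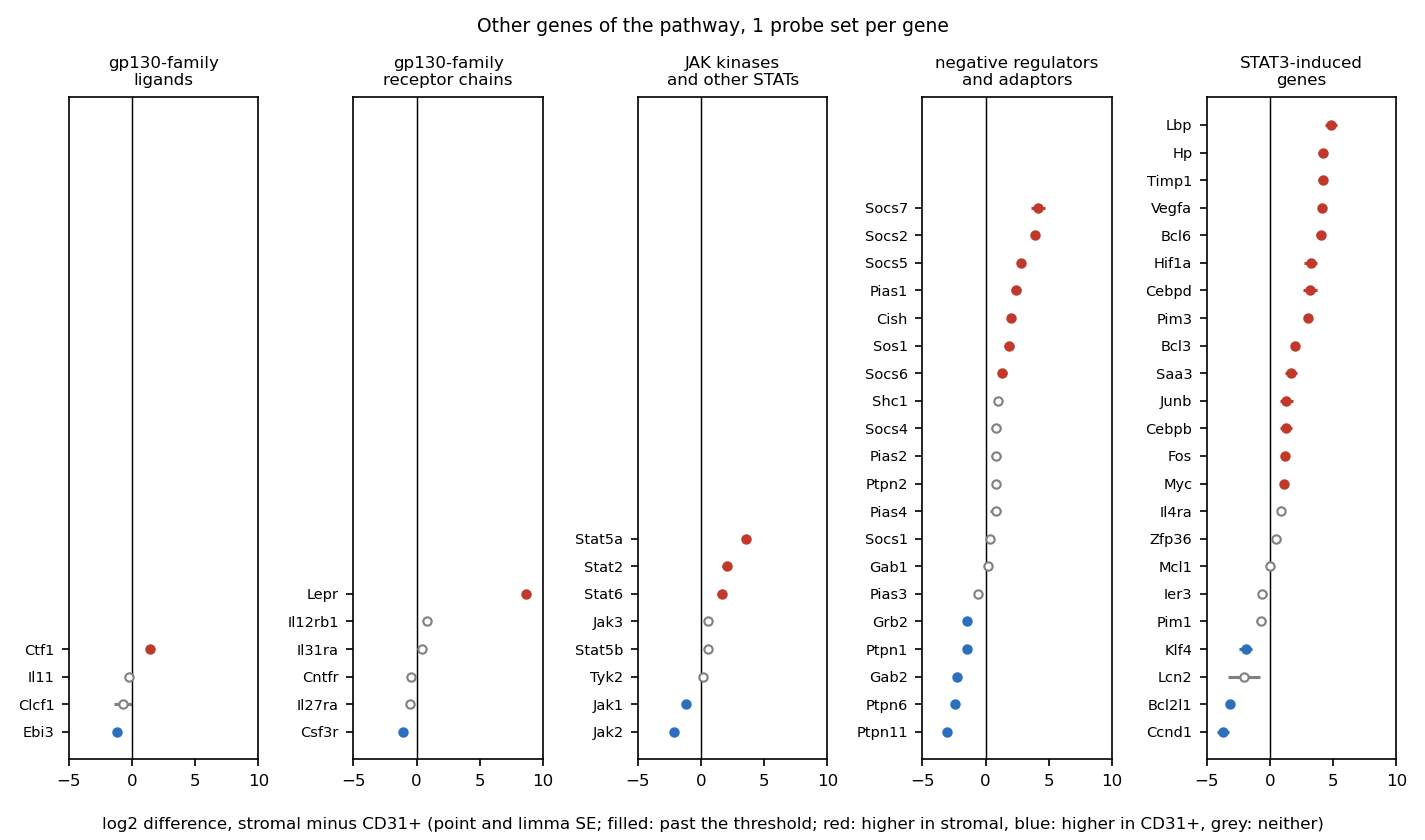
Log2 difference, stromal minus CD31+ (horizontal axis), with limma SE, of the 61 tested pathway genes in 5 lists; filled points passed the threshold (red higher on stromal, blue higher on CD31+ arrays) and grey open points passed neither way. Called genes lie on both sides in each list, and 14 of the 23 STAT3-induced genes are called on the stromal side.

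**Figure D5:**
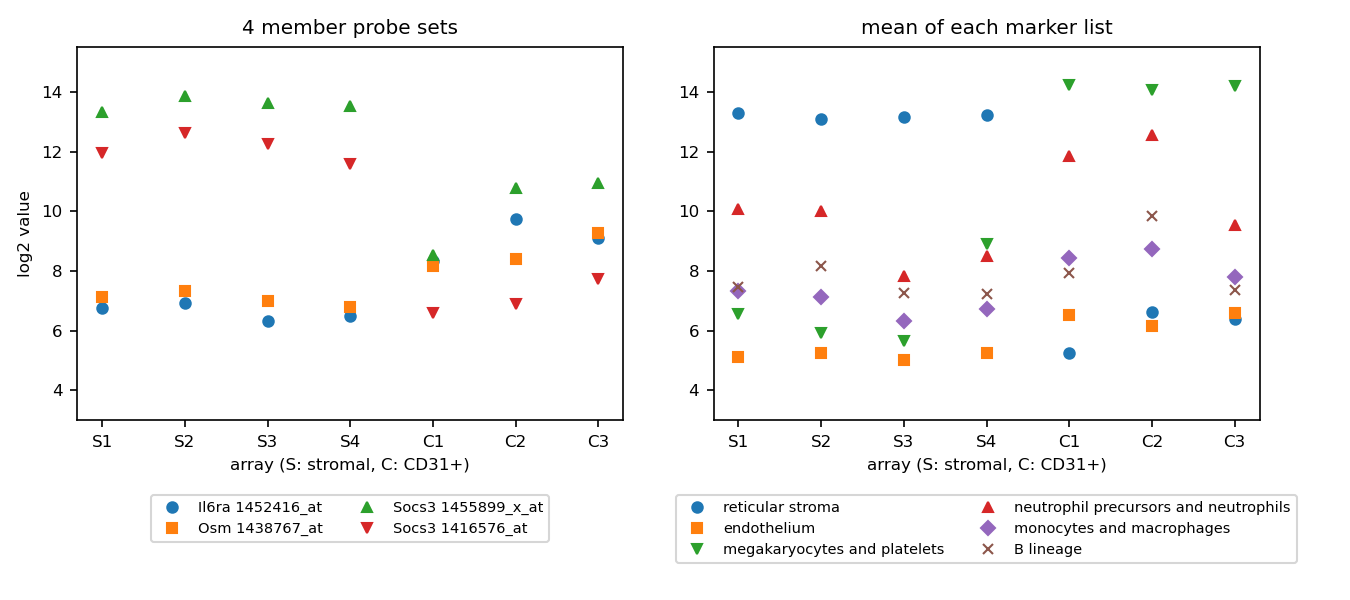
Log2 values by array (S stromal, C CD31+) of 4 member probe sets (left) and the mean log2 value of each list of cell type markers (right). The megakaryocyte mean lies at 14.06 to 14.22 on the CD31+ arrays, and Socs3 1455899_x_at lies at 8.55 on CD31+ 1, below its values on CD31+ 2 and 3.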

How the data were processed

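Gene expression was measured on 4 stromal and 3 CD31+ (labelled endothelial) arrays. Each deposited value is a log2 expression value of a probe set, computed by RMA in Affymetrix Expression Console 1.1, per the submitters' processing notes. RMA corrects background, normalizes by quantiles and summarises probes, which compresses low values toward a floor. Which arrays were normalized together is not given in the sources used here. No 2 columns were identical, and the number of arrays limits the precision.

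Probe sets were named from a platform annotation of 2016: 34945 had 1 symbol, 932 several and 9160 none, and 64 were controls. Differences and SEs came from limma 3.58.1 under R 4.3.3 (lmFit, eBayes), without covariates. P-values were adjusted by Benjamini-Hochberg over the 29439 probe sets or, with the brightest probe set of each gene, over the 13995 genes tested. The procedure was tested on simulated data. The members, lists, markers and alternatives were chosen with earlier results of these data known. The text names all members, up to 4 called genes per list and direction, every gene of a list with 8 or fewer on the array, the 5 nearest profiles of 4 members, and markers. The alternatives were no filter or the 60th percentile, a second quantile normalization, cyclic loess, eBayes with trend and robust options, adjusted p alone, blocks for replicate number or hybridisation controls, other choices of probe set, and leaving out each array.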

Additional observations from a re-analysis of the deposited data

Results flagged for a closer look

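In 54 groups of 4 stromal values (23 member probe sets and 31 named pathway genes), 3 had an array set far from the other 3 relative to the range of the group, and chance alone gives about 1 in 20. Il6st 1460295_s_at lay at 5.74 on stromal 1 and at 5.34, 5.34 and 5.35 on stromal 2 to 4, close to the floor. Socs7 lay at 11.62 on stromal 4 and at 11.01, 11.03 and 11.05 on stromal 1 to 3. Ptpn6 lay at 9.32 on stromal 2 and at 8.64, 8.53 and 8.55 on the other stromal arrays.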

How the results depend on the processing

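The count of member probe sets called higher on the stromal arrays was 11 and ranged from 9 to 12 over the alternatives, except without probe sets ending in _x_at, _s_at or _a_at, where it was 7 because 4 called probe sets, 2 each of _x_at and _a_at, were left out. The count called higher on the CD31+ arrays was 2, and 1 with a block for the hybridisation controls, where Osm was lost. Leaving out each array gave 11 to 12 and 2. With the replicate number as a block these counts were 11 and 2 and no member call changed. Stromal 4 has no CD31+ array of its number, so this block gives the differences found without stromal 4. Csf3r, at -0.94, was the only named pathway gene whose call that block changed. The labels do not say whether equal numbers pair the arrays. Deviations of same-numbered arrays correlated at -0.119, 0.002 and 0.117 over 29439 probe sets, and not every array correlated best with its own number. With so few arrays these values do not settle whether same-numbered samples shared mice or sorts. With adjusted p alone, 8580 probe sets and 4412 genes passed on the CD31+ side, against 4293 and 2252, since no minimum difference is asked. Pathway genes called numbered 20 to 32 on the stromal and 9 to 13 on the CD31+ side. Of all genes called, 65.7% were higher on the stromal arrays, and 52% after a second quantile normalization. Of 283 alternative differences of member probe sets, 260 moved by less than the spread between replicates and 23 by more, and no called member changed sign. Of 505 for named pathway genes, 15 lost a call and 3 gained one. The floor of the arrays limits Il6, 1 probe set of Lif and the size of the Lifr and Osmr differences. Among the named pathway genes called, it also limits the size of the Lepr, Stat2, Vegfa and Socs6 differences, and Ebi3 lay close to it on the stromal arrays.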
